A study of Mus musculus with 72 samples.

Results

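The genes described here carry the symbols of cytosolic ribosomal proteins and were measured in liver and gastrocnemius muscle of fasted and fed mice. Members were chosen by symbol: Rpl or Rps, a number and at most 1 letter out of a, x, l and y, together with Rplp0, Rplp1, Rplp2 and Rpsa. The rule found 80 of the 20561 genes in the whole-gene table, of which 48 carry names of the large ribosomal subunit and 32 names of the small subunit. GENCODE M21 annotates 1 of them, Rps4l, as a transcribed processed pseudogene and the others as protein-coding. All mice were 8-week-old male C57BL/6J. The 4 kinds of sample were liver of mice fasted for 24 h, liver of mice fed ad libitum, gastrocnemius of fasted mice and gastrocnemius of fed mice. Each was sampled at zeitgeber time (ZT) 0, 4, 8, 12, 16 and 20 h with 3 libraries per time, which gives 18 libraries per kind and 72 in all. Libraries were made from whole tissue, so each value is a mixture over the cell types of the organ. Labels number the libraries of a group separately and do not state how they relate to animals, so a p-value here speaks of variation among the libraries, which may be partly technical.

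A cytosolic ribosome has a small subunit, which reads the mRNA, and a large subunit, which joins amino acids and threads the new protein through an exit tunnel. Cells make the subunit proteins in near-equal amounts from single-copy genes, while the genome holds many processed pseudogenes of the same mRNAs. Most of these mRNAs begin with a cytosine followed by a run of pyrimidines, the terminal oligopyrimidine (TOP) tract. When nutrients are short, the kinase complex mTORC1 is less active and TOP mRNAs leave polysomes, a control of translation that RNA levels need not show. Many of the genes also carry small nucleolar RNA (snoRNA) genes in their introns, and a snoRNA gene lay inside 29 of the 80 members. Liver and muscle are both known to change their protein synthesis with feeding.

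The start sites of the members on which the results turn are shown first, because the pyrimidine run of a TOP mRNA begins at the first base of the transcript. Each stretch holds 30 bases of RefSeq on GRCm38.p6, 15 before the annotated start and 15 from it, with the longest run of C or T bases in capitals. Capitals mark that run wherever it lies and do not mark a TOP tract. In Rpl4 and Rps27l the run lies wholly before the annotated start. In Rpl39, Rpl12, Rps12 and Rpl3l it begins past the first base. The stretches lie at chr16:33056467-33056496 (Rpl35a, plus strand), chrX:37085208-37085237 (Rpl39, minus strand), chr9:66946071-66946100 (Rps27l, plus strand), chr3:90213634-90213663 (Rps27, minus strand), chr2:32961697-32961726 (Rpl12, plus strand), chr10:23787195-23787224 (Rps12, minus strand), chr9:64173372-64173401 (Rpl4, plus strand) and chr17:24727811-24727840 (Rpl3l, plus strand).
Rpl35a: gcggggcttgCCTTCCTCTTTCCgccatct
Rpl39: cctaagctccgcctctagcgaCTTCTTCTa
Rps27l: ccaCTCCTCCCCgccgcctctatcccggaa
Rps27: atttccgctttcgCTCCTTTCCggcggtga
Rpl12: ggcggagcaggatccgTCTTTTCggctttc
Rps12: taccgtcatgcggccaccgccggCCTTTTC
Rpl4: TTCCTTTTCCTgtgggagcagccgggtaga
Rpl3l: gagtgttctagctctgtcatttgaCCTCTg

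RefSeq start windows were found for 59 members, in 71 windows. A run of 8 or more C or T bases on the gene's strand, from 20 bases before to 20 bases after the start, was present in 30 of the 71 windows (42.3%), against 16.0% of 32851 windows of all genes. The motif CCGGAAG, the core of sites bound by ETS-family factors, was searched on both strands of the full windows of 250 bases before and 50 after the start. It was present in 25 member windows (35.2%), against 8.86% of all windows. The motif AAGATGGC, bound by the factor YY1, was present on either strand in 7 member windows (9.86%), against 2.75% of all windows. These matches describe letters in the windows and were not tested as sites. The run had 13 letters in Rpl35a, which fell in fasted liver, and 9 letters in Rps27, which rose in both tissues. In Rpl3l, the paralog of striated muscle, the longest run among the bases shown was 5 letters.

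Levels differed widely between genes whose proteins are needed in near-equal amounts. Averaged over all 72 libraries, 23 members lay under 5 FPKM (fragments per kilobase of transcript, scaled to sequencing depth), 21 between 5 and 50 FPKM and 36 at 50 FPKM or more, of which 9 reached 200 FPKM. Sequence shared with pseudogenes and other genes was counted as the share of a transcript's 50-base words found in no other GENCODE M21 gene. The median member had 48.8% such words, with a range from 1.35% in Rps27 to 100% in Rpl3l, and 77 members shared words with at least 1 pseudogene. Across the 80 genes the mean level had a Spearman correlation of 0.34 with the unshared share, of -0.35 with the number of genes sharing words and of 0.04 with transcript length. These correlations are across genes of the same libraries and are descriptions. Rps6, the target of S6 kinases, illustrates the low group, with 2.09, 2.72 and 4.39 FPKM (lowest, median, highest) in fasted liver and 2.09, 2.75 and 3.45 FPKM in fed liver, at 15.4% unshared words. Rpl4, which lines the exit tunnel and has 83.5% unshared words, had 251, 284 and 403 FPKM in fasted liver and 277, 343 and 381 FPKM in fed liver. How the authors counted reads that map to several places is not given in the sources used here, so a low level of a member with much shared sequence is an uncertain level.

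Members that did not reach 1 FPKM in at least 3 libraries of a tissue were not tested there. In liver these were Rpl10l, Rpl27, Rpl39l, Rpl3l, Rps23 and Rps29, which leaves 74 members. In muscle they were Rpl10l, Rpl23a, Rpl39l, Rps23 and Rps29, which leaves 75 members, and 73 were tested in both tissues. The paralogs Rpl10l and Rpl39l are known for expression in testis. Rpl10l was listed at 0 in every library but 1 of fed liver, and Rpl39l reached at most 0.0789 FPKM in liver and 0.195 FPKM in muscle. Together the members made up 1.14, 1.24 and 1.97% (lowest, median, highest) of all FPKM in fasted liver and 1.21, 1.53 and 1.65% in fed liver. The shares were 1.45, 1.62 and 2.06% in fasted muscle and 1.42, 1.54 and 2.11% in fed muscle, so that the ranges of fasted and fed libraries overlapped in both tissues. Depth was estimated from low values at a median of 25.5 M reads per library, with a range of 17.1 to 35.1 M.

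Ribosomal protein transcripts are short, with a median length of 834 nt against 2498 nt over all genes, and several libraries differed in how level depended on length. For each library the deviation of every other gene from its tissue mean was regressed on log2 transcript length. The slope averaged 0.039 ± 0.060 log2 units per doubling of length in fasted liver and -0.039 ± 0.051 in fed liver (SD, n = 18 each), so short transcripts were on average relatively lower in fasted libraries. In muscle it averaged 0.032 ± 0.051 in fasted and -0.032 ± 0.075 in fed libraries (SD, n = 18 each). A few libraries stood apart. Replicate 5 of fasted liver at ZT12 had a slope of -0.153 and members 0.59 log2 units above their tissue mean by the median, and replicate 5 of fed liver at ZT0 had -0.162 and 0.39. In muscle, replicate 5 of fed ZT16 had a slope of -0.269 with members at 0.72, replicate 1 of fed ZT4 had -0.189 with members at 0.44, and replicate 4 of fasted ZT8 had -0.101 with members at 0.49. Most of the main counts below are given with and without the 2 libraries of most extreme slope in each tissue. These were fasted ZT12 replicate 5 and fed ZT0 replicate 5 in liver and fed ZT16 replicate 5 and fed ZT4 replicate 1 in muscle.

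**Figure D1:**
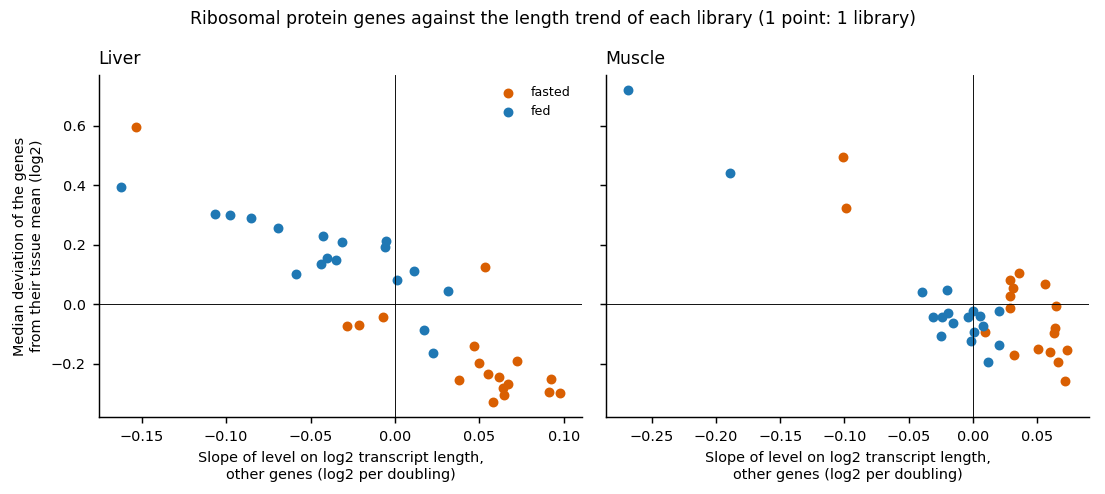
Each point is 1 library, liver on the left and muscle on the right. The x axis is the slope of level on log2 transcript length over genes that are not members (log2 per doubling), and the y axis is the median deviation of the members from their tissue mean (log2). The highest median in muscle, 0.72, was in the library of slope -0.269, and the highest in liver, 0.59, in that of slope -0.153.

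In fasted liver, most ribosomal protein mRNAs were lower than in fed liver, by modest amounts. Of 74 members tested, 55 fell, 1 rose and 18 did not pass (limma, adjusted p under 0.05 over all genes tested), where 48% of all genes tested fell and 25% rose. The members' median change was -0.34 on the log2(FPKM + 0.5) scale, against -0.13 over all genes tested. Both subunits took part, with falls in 32 of 44 tested large-subunit members and 23 of 30 small-subunit members. In bulk tissue, fewer cells of a type and less RNA per cell cannot be told apart. Falls numbered 26 of 34 among members with 50% or more unshared words and 29 of 40 among those under 50%. Among members averaging 50 FPKM or more, 30 of 35 fell, against 7 of 18 of those under 5 FPKM.

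Of the 5 largest falls, 4 were in large-subunit members. Rpl39, a short protein of the exit tunnel (chrX:37082520-37085402 on mm10), had 45.6, 63.1 and 96.0 FPKM (lowest, median, highest of 18) in fasted liver and 65.1, 106.6 and 169.9 FPKM in fed liver. The ranges overlapped, but at 5 of 6 times all 3 fasted libraries lay below all 3 fed ones. Its log2 change was -0.74 (SE 0.10, limma adjusted p = 9.43e-08). Rpl41, the shortest ribosomal protein (chr10:128548114-128549305), had 121.6, 153.5 and 341 FPKM in fasted liver and 168, 234 and 403 FPKM in fed liver, a change of -0.63 (SE 0.10, limma adjusted p = 2.70e-06). Rpl35a, a large-subunit protein mutated in Diamond-Blackfan anaemia in humans (chr16:33056453-33060189), had 33.6, 39.5 and 65.0 FPKM in fasted liver and 49.8, 62.3 and 76.3 FPKM in fed liver. The library of 65.0 FPKM was fasted ZT12 replicate 5, and at the other 5 times fasted and fed libraries did not overlap. Its change was -0.60 (SE 0.067, limma adjusted p = 1.43e-09). Rpl29 (chr9:106429454-106431568), another large-subunit protein, had 5.48, 7.19 and 11.1 FPKM in fasted liver and 8.55, 11.2 and 15.8 FPKM in fed liver, and changed by -0.60 (SE 0.082, limma adjusted p = 8.57e-08). Rps27l, the p53-inducible paralog of Rps27 (chr9:66946086-66949516), had 77.8, 117.5 and 165 FPKM in fasted liver and 121.5, 178 and 215 FPKM in fed liver, and changed by -0.59 (SE 0.081, limma adjusted p = 8.81e-08). Fasted and fed ranges of both genes overlapped over the day and were apart at 4 of 6 times.

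**Figure D2:**
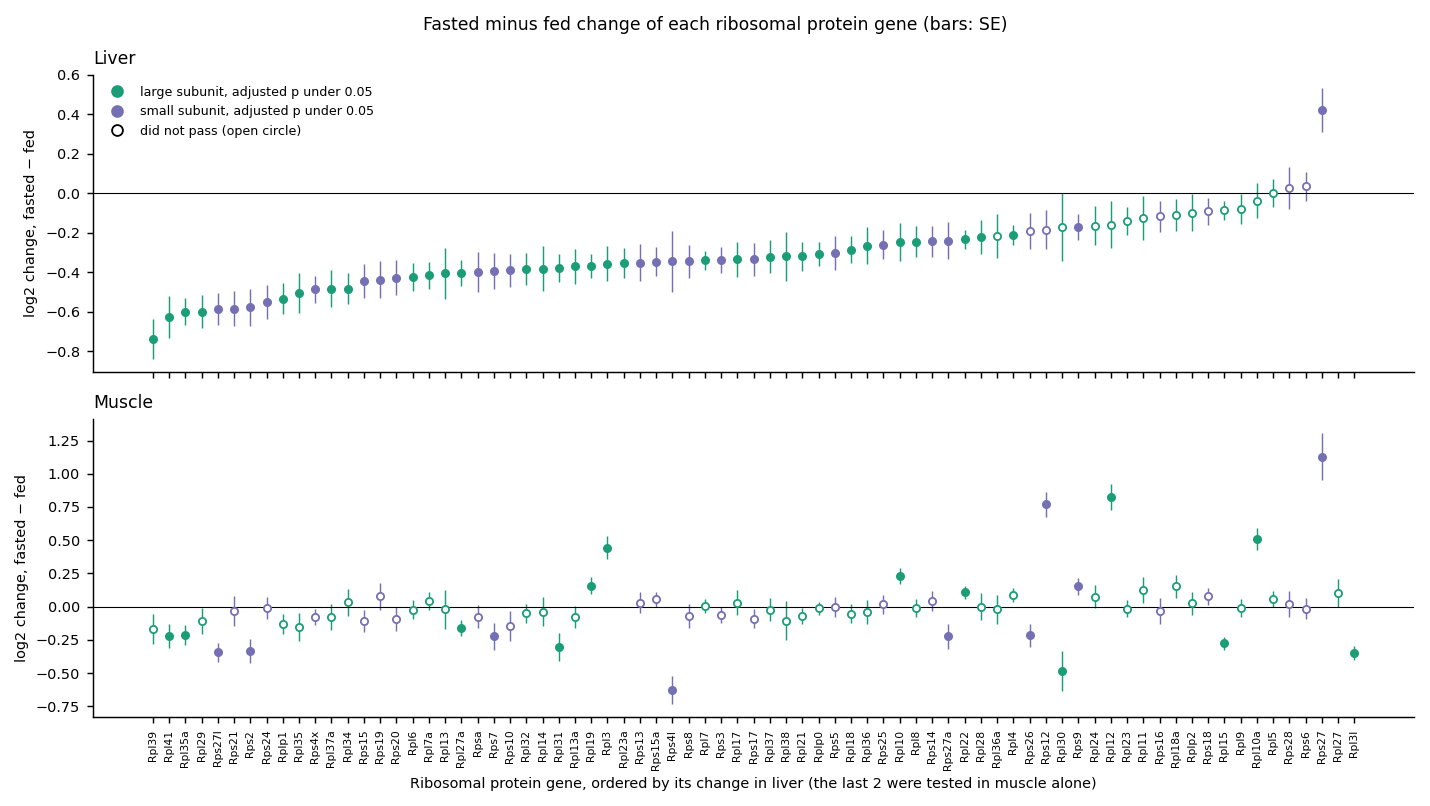
Fasted minus fed log2 change of each tested member (y axis) with its SE, liver above and muscle below, with genes on the x axis ordered by their change in liver. Filled points passed adjusted p under 0.05 and open points did not. Of the members tested, 55 of 74 fell in liver and 53 of 75 did not pass in muscle, and 1 of them is not drawn.

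In the stalk that recruits translation factors, Rplp1 had 377, 431 and 798 FPKM in fasted liver and 412, 644 and 831 FPKM in fed liver (log2 change -0.53, limma adjusted p = 3.17e-07). Its partner Rplp0 had 145, 161 and 235 FPKM in fasted liver and 156, 205 and 261 FPKM in fed liver, a change of -0.31 that passed, while Rplp2 changed by -0.10 and did not pass (limma adjusted p = 0.350). Of small-subunit members, Rps4x (-0.49), Rps19 (-0.44), which is mutated in Diamond-Blackfan anaemia in humans, Rpsa (-0.40), Rps3 at the mRNA entry channel (-0.34), Rps14 (-0.24) and the ubiquitin fusion Rps27a (-0.24) fell. Of large-subunit members, Rpl13a (-0.37), Rpl3 next to the peptidyl transferase centre (-0.36), Rpl38 (-0.32), the late-joining Rpl10 (-0.25), Rpl22 (-0.23) and Rpl4 (-0.21) fell. Rpl5 and Rpl11, which bind the p53 regulator Mdm2 when free of the ribosome, did not pass, at 0.00 (limma adjusted p = 0.977) and -0.13 (0.307). Neither did Rps6 at 0.03, Rpl10a at -0.04, Rps18 at -0.09 and Rpl24 at -0.16 (limma adjusted p = 0.677, 0.720, 0.232 and 0.128). Rps4l, the annotated pseudogene, changed by -0.35 with a limma adjusted p of 0.0467, which ran from 0.0081 to 0.087 as each library was left out. Without fasted ZT12 replicate 5, Rps18 and Rpl24 also passed (limma adjusted p = 0.033 and 0.0079).

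The only member that passed as a rise in fasted liver was Rps27, a zinc-finger protein of the small subunit (chr3:90212522-90213651). It had 1.49, 2.60 and 4.57 FPKM in fasted liver and 1.31, 1.88 and 3.82 FPKM in fed liver, with overlapping ranges and a change of 0.42 (SE 0.11, limma adjusted p = 0.00123). These levels correspond to an estimated median of 28 reads in fasted and 17 reads in fed libraries. With 1.35% unshared words, reads of Rps27 and of its pseudogenes cannot be told apart.

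The number of falls in liver depended on scaling and on the length trend. With median-of-ratios scaling, which moved the median of all genes to 0.02, 31 members fell and 2 rose, or 41.9% falling against 35.4% of all genes. Quantile normalisation gave 34 falls (45.9% against 36.1%), removal of a linear length trend 42 (56.8% against 49.4%) and removal of a lowess length trend 36 falls and 5 rises (48.6% against 49.0%). With the lowess trend removed, the share of members that fell was thus no larger than that of all genes. The share that rose stayed below that of all genes in each of these settings. It was 2.7% against 37.6% with median-of-ratios scaling and 2.7% against 37.2% with quantile normalisation. With the linear trend removed it was 4.05% against 24.4%, and with the lowess trend removed 6.76% against 24.3%. Without the 2 libraries of most extreme slope, 60 fell and 1 rose. Markers of other liver cells moved with feeding state as well: 9 of 10 macrophage markers fell, with summed levels of 51.2 to 158 FPKM in fasted and 87.3 to 346 FPKM in fed liver. All 5 cholangiocyte markers fell too. Of 8 stellate cell and fibroblast markers 6 fell and 2 rose, with summed medians of 77.4 FPKM in fasted and 72.1 FPKM in fed liver. Of 8 endothelial markers 5 fell and 1 rose, and of 10 hepatocyte markers 4 fell and 5 rose. Hepatocyte markers summed to 60377 to 81044 FPKM in fasted and 60947 to 83785 FPKM in fed liver. Erythroid markers summed to 12.4 to 33.6 FPKM in fasted and 56.7 to 89.5 FPKM in fed liver, with no overlap. Skeletal muscle markers, which healthy liver lacks, summed to 0.470, 0.823 and 349 FPKM (lowest, median, highest) in fasted and 1.19, 68.3 and 179 FPKM in fed liver, and 9 of 10 fell. The part of these cells in the change of ribosomal protein genes was not tested.

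In fasted muscle, most ribosomal protein mRNAs did not pass the test against fed muscle, and the others moved in both directions. Of 75 tested, 9 rose, 13 fell and 53 did not pass, where 30.3% of all genes tested rose, 51.8% fell and 82.1% thus passed. The members' median change was -0.02, against -0.17 over all genes. Members that passed were therefore less frequent than among all genes in both directions. The split was sensitive to scaling: median-of-ratios scaling gave 25 rises and 4 falls (33.3% rising against 39.4% of all genes), and removal of a lowess length trend 45 rises and 4 falls (60% against 30.4%). Without the 2 libraries of most extreme slope, 13 of 73 rose and 8 fell. Skeletal muscle markers summed to 76355 to 112171 FPKM in fasted and 92499 to 138363 FPKM in fed muscle, with 7 of 10 falling and 1 rising. Of markers of other cells, 6 of 7 for macrophages, 6 of 7 for stellate cells and fibroblasts and 4 of 4 for adipocytes fell. Of 8 endothelial markers 5 fell and 3 rose, and of 4 nerve markers 0 passed. Satellite cell markers summed to 0.673 to 1.98 FPKM in fasted and 6.41 to 16.6 FPKM in fed muscle, with no overlap, and hepatocyte markers summed to 1.89 to 50.6 FPKM in fasted and 6.32 to 211 FPKM in fed muscle. Their part in the values of the ribosomal protein genes was not tested.

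The 5 largest rises were in members of low level. Rpl12, a protein of the stalk base (chr2:32961559-32965345), had 3.28, 5.26 and 8.04 FPKM in fasted muscle and 1.804, 2.68 and 4.49 FPKM in fed muscle. All fasted libraries lay above all fed ones at each of the 6 times, and its change was 0.83 (SE 0.096, limma adjusted p = 1.53e-09). Rps12, in the beak of the small subunit (chr10:23785183-23787275), had 2.31, 4.26 and 6.77 FPKM in fasted muscle and 1.72, 2.20 and 3.33 FPKM in fed muscle, was apart at 5 of 6 times, and changed by 0.77 (SE 0.093, limma adjusted p = 3.80e-09). Rpl10a, in the mobile stalk near the tRNA exit site, had 1.09, 2.09 and 3.11 FPKM in fasted muscle and 0.860, 1.47 and 2.01 FPKM in fed muscle, a change of 0.51 (SE 0.081, limma adjusted p = 7.60e-07). Unshared words made up 51.0% of Rpl12, 9.89% of Rps12 and 11.9% of Rpl10a, so the assignment of reads to Rps12 and Rpl10a is uncertain. Rps27 had 1.67, 3.43 and 6.46 FPKM in fasted muscle and 0.0353, 1.37 and 2.78 FPKM in fed muscle, a change of 1.13 (SE 0.18, limma adjusted p = 7.36e-07) at an estimated median of 27 and 11 reads. Rpl3 (chr15:80077791-80091868) had 4.62, 6.17 and 9.18 FPKM in fasted muscle and 3.25, 4.58 and 6.64 FPKM in fed muscle, a change of 0.44 (SE 0.085, limma adjusted p = 1.72e-05) with 14.4% unshared words. Fasted and fed ranges of Rpl3 overlapped at 4 of 6 times. The smaller rises were Rpl10 (0.23), Rpl19 (0.16), Rps9 (0.15) and Rpl22 (0.11), and for Rpl22 the limma adjusted p of 0.0430 ran from 0.0083 to 0.079 as each library was left out.

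The 5 largest falls in muscle were Rps4l, Rpl30, Rpl3l, Rps27l and Rps2. Rps4l, the annotated pseudogene (chr6:148354656-148355598), had 0.607, 1.26 and 2.30 FPKM in fasted muscle and 1.10, 2.41 and 3.01 FPKM in fed muscle, and changed by -0.63 (SE 0.10, limma adjusted p = 1.13e-06). Rpl30, whose yeast form regulates splicing of its own transcript, had 0.437, 1.25 and 2.33 FPKM in fasted muscle and 0.850, 1.97 and 3.68 FPKM in fed muscle, and changed by -0.48 (SE 0.15, limma adjusted p = 0.00374). Both genes were near the filter and their ranges overlapped. Rps27l had 40.3, 54.8 and 78.1 FPKM in fasted muscle and 63.5, 68.6 and 117 FPKM in fed muscle (change -0.34, SE 0.071, limma adjusted p = 5.02e-05). Rps2, near the mRNA entry site, had a median of 31.9 FPKM in fasted muscle (highest 58.2) and of 41.5 FPKM in fed muscle (highest 69.9) (change -0.33, SE 0.092, limma adjusted p = 0.00140). Further falls of 0.16 to 0.30 passed in Rpl31, Rpl15, Rps27a, Rps7, Rpl41, Rpl35a, Rps26 and Rpl27a. Of these, only Rpl41 and Rps27a were followed singly across settings in muscle. Both turned positive with the lowess length trend removed (0.049 and 0.019). The stalk proteins did not pass: Rplp0 had 222, 253 and 315 FPKM in fasted muscle and 230, 244 and 344 FPKM in fed muscle (change -0.01, limma adjusted p = 0.825), and Rplp1 had 396, 482 and 682 FPKM in fasted muscle and 450, 510 and 950 FPKM in fed muscle (change -0.13, limma adjusted p = 0.119). Without fasted ZT8 replicate 4 Rplp1 passed as a fall (limma adjusted p = 0.044), and without fed ZT16 replicate 5 Rpl4, at 0.09, passed as a rise (0.037).

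Where the fasting change differed between the tissues, it was nearly always lower in liver. In the interaction of tissue and feeding state over 72 libraries, 50 of 77 tested members had a lower change in liver than in muscle and 1 a higher one, where 37% of all genes were lower, 34.7% higher and 71.6% either. The median difference was -0.29, against -0.02 over all genes. The largest were Rpl12 at -0.99 (SE 0.14, limma adjusted p = 3.00e-08), Rps12 at -0.96 (SE 0.13, limma adjusted p = 8.19e-09), Rpl3 at -0.80 (SE 0.098, limma adjusted p = 2.43e-10), Rps27 at -0.71 (SE 0.17, limma adjusted p = 0.000304) and Rpl39 at -0.57 (SE 0.15, limma adjusted p = 0.000892). Rpl15 was the single member that passed with a higher change in liver, at 0.19 (SE 0.072, limma adjusted p = 0.0171). Counts of members with a lower change in liver were 38 with median-of-ratios scaling (49.4% against 34.5% of all genes) and 31 with quantile normalisation (40.3% against 36.1%). They were 54 with the linear length trend removed (70.1% against 38%) and 56 with the lowess trend removed (72.7% against 38.2%). Without the extreme libraries the count was 61 of 76 (80.3% against 37.7%). Among the 73 members tested in both tissues, 9 fell in both, 40 fell in liver and did not pass in muscle, and 5 fell in liver and rose in muscle. Rps27 rose in both, 3 members fell in muscle and 3 rose there without passing in liver, and 12 passed in neither.

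Exonic and intronic signal were deposited in separate tables that held 72 of the members. Intronic reads come largely from unspliced RNA, and both tables carry a scaling of their own, so a change in either is set against the rest of that table. In liver, 47 of 69 members fell in the exonic table and 0 rose (46.4% of all genes fell and 26.3% rose). The count of 0 rises came with 48 members at an unadjusted p under 0.05 in either direction by limma. Median-of-ratios scaling gave 1 rise and 26 falls. The share that fell was then 37.7%, close to the 35.9% of all genes, while 1.45% rose against 37.4%. Intronic values of 37 out of 70 members fell and of 2 rose (41.1% of all genes fell, 18.6% rose and 59.7% passed), with a median of -0.35 against -0.17. With median-of-ratios scaling the intronic falls were 18, or 25.7% against 28.4% of all genes. Without the 2 libraries of most extreme slope, exonic falls were 53 (47.2% of all genes) and intronic falls 41 (41.1% of all genes). Rpl35a had 6.04, 8.57 and 12.8 intronic FPKM in fasted liver and 10.3, 17.3 and 38.4 in fed liver, a change of -1.15 (SE 0.14, limma adjusted p = 1.65e-08). Rps24 had 7.63, 15.7 and 23.2 intronic FPKM in fasted liver and 22.9, 30.5 and 49.0 in fed liver, a change of -1.07 (SE 0.12, limma adjusted p = 9.87e-09). Both were apart at 5 of 6 times, and fasted and fed ranges of Rps24 barely overlapped. Rpl21 (-0.88), Rpl23a (-0.87) and Rpl41 (-0.70) were the next largest intronic falls, and Rps28 (0.59, limma adjusted p = 0.0235) and Rplp2 (0.40, limma adjusted p = 0.00695) rose. Of 69 members tested in both tables, 30 fell in both. The exonic change was higher than the intronic one in 11 members and lower in 4, where 23.9% and 14.8% of all genes were, 38.8% together.

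In fasted muscle the intronic signal of many members rose while the exonic signal did not pass. Exonic values of 9 out of 69 members rose and of 10 fell (28.5% of all genes rose, 54% fell and 82.5% passed). Median-of-ratios scaling gave 29 exonic rises and 2 falls. That was 42% rising against 39.2% of all genes, and 2.9% falling against 41.8%. Leaving out fasted ZT8 replicate 4 or fed ZT8 replicate 5 left 5 exonic rises. Intronic values of 40 out of 71 members rose and of 3 fell, where 26.8% of all genes rose, 42.9% fell and 69.7% passed, and the median was 0.36 against -0.16. Median-of-ratios scaling gave 50 intronic rises, and leaving out each library in turn gave 34 to 46. Without the 2 libraries of most extreme slope there were 48 intronic rises (67.6% against 26.4% of all genes). Exonic rises were then 13 and exonic falls 8 (28% and 55.4% of all genes). The exonic change was lower than the intronic one in 42 of 69 members and higher in 3, against 25.7% and 26.9% of all genes. With median-of-ratios scaling these counts were 38 and 5. Of the 69, 27 rose in the intronic table without passing in the exonic one, 9 rose in both, 4 fell in the exonic and rose in the intronic table, and 21 passed in neither. Rises were 14 of 28 members with a snoRNA gene inside and 26 of 43 without, a difference that was not tested.

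Values per library show the size of these intronic changes in muscle. Rps20, a small-subunit protein, had 6.98, 23.8 and 73.0 intronic FPKM in fasted muscle and 1.56, 5.79 and 13.0 in fed muscle, with all fasted libraries above all fed ones at 6 of 6 times (change 1.84, SE 0.25, limma adjusted p = 7.93e-08). Its exonic values of 94.3, 118 and 195 FPKM in fasted muscle and 108, 129 and 281 FPKM in fed muscle overlapped. Rps28 had 14.4, 23.2 and 40.2 intronic FPKM in fasted muscle and 3.08, 6.73 and 19.6 in fed muscle (change 1.64, SE 0.18, limma adjusted p = 8.67e-10). Rpl12 had 47.4, 76.5 and 136 intronic FPKM in fasted muscle and 19.0, 27.2 and 62.3 in fed muscle (change 1.35, SE 0.14), and Rps12 had 62.8, 124 and 217 in fasted muscle and 30.3, 48.3 and 88.7 in fed muscle (change 1.32, SE 0.12). Rpl12 and Rps12 were among the members that also rose in the exonic table, by 1.02 and 0.80. The intronic medians of Rpl12 and Rps12 lay far above their whole-gene medians given earlier, in fasted and in fed muscle. Which RNA these intronic reads came from was not tested. For these genes, exonic and intronic change are therefore no safe contrast of spliced and unspliced RNA. Rps9 rose by 1.28 in the intronic table with an SE of 0.12. The 2 largest intronic falls in muscle were Rpl3l (-4.25) and Rpl32 (-1.19). Rpl32, a large-subunit protein, had 5.23, 15.4 and 28.2 intronic FPKM in fasted muscle and 26.4, 34.6 and 75.4 in fed muscle, apart at 6 of 6 times, while its exonic values of 283, 321 and 468 FPKM in fasted muscle and 299, 336 and 621 FPKM in fed muscle overlapped. The library kit does not mark strand, so reads of a member and of a gene on the opposite strand cannot be told apart.

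**Figure D3:**
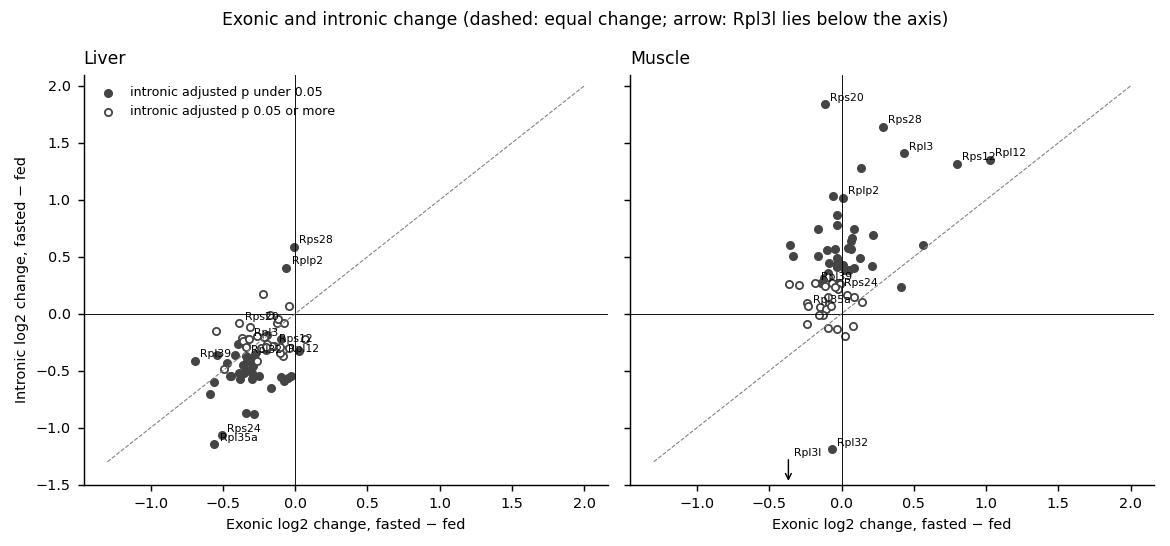
Each point is a member tested in both tables, of which 1 is not drawn, with the exonic log2 change (fasted minus fed) on the x axis and the intronic one on the y axis, liver left and muscle right. Filled points passed in the intronic table, the dashed line marks equal change, and Rpl3l in muscle (-4.25 intronic) lies below the axis. In muscle most filled points lie above the line.

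The paralogs Rpl3l and Rpl3 moved in opposite directions in muscle. Rpl3l replaces Rpl3 in many ribosomes of mature skeletal and heart muscle. Rpl3l (chr17:24727820-24736143) had 199, 211 and 274 FPKM in fasted muscle and 240, 270 and 407 FPKM in fed muscle, with all fasted libraries below all fed ones at 5 of 6 times, and changed by -0.35 (SE 0.056, limma adjusted p = 8.95e-07). With the rise of Rpl3 given above, the ratio of Rpl3l to Rpl3 was 25.5, 34.5 and 46.5 in fasted muscle and 43.6, 59.6 and 84.5 in fed muscle. The shared sequence of Rpl3 makes its share of the ratio uncertain. Intronic signal moved much further. Intronic Rpl3l was 4.17, 11.7 and 28.4 FPKM in fasted muscle and 175, 207 and 299 FPKM in fed muscle, with no overlap, a change of -4.25 (SE 0.15, limma adjusted p = 3.93e-22). Intronic Rpl3 was 15.8, 29.0 and 44.7 FPKM in fasted muscle and 7.66, 9.55 and 16.4 FPKM in fed muscle, with all fasted above all fed libraries at 6 of 6 times, a change of 1.41 (SE 0.10, limma adjusted p = 5.80e-14). The exonic minus intronic change was 3.88 for Rpl3l (SE 0.13, limma adjusted p = 3.98e-22) and -0.98 for Rpl3 (SE 0.087, limma adjusted p = 2.97e-11). Intronic medians of Rpl3 also lay above its whole-gene medians given earlier, so its value is no safe contrast of spliced and unspliced RNA. Skeletal muscle markers moved in the same direction as intronic Rpl3l. Their summed intronic level was 1189, 2105 and 3624 FPKM in fasted muscle and 3334, 4042 and 5550 FPKM in fed muscle, and for 8 of 10 markers all fasted libraries lay below all fed ones. In the exonic table, where their sums were 104101 to 147978 FPKM in fasted and 128885 to 186858 FPKM in fed muscle, this held for 0 of 10. The share of all genes with fasted and fed libraries apart was not counted, so these counts have no background. Of all genes tested in the intronic table, 42.9% fell in muscle. Their part in the intronic change of Rpl3l was not tested.

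**Figure D4:**
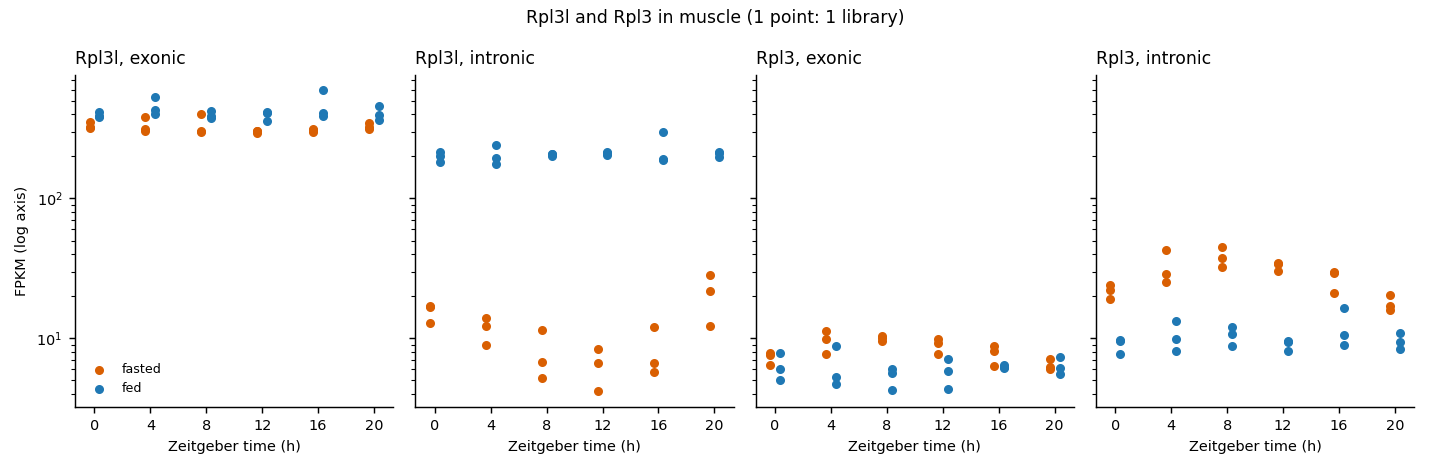
FPKM (log axis) of Rpl3l and Rpl3 in muscle by zeitgeber time (h), from the exonic and intronic tables, with 1 point per library, fasted left of fed at each time. Intronic Rpl3l reached at most 28.4 FPKM in fasted libraries and at least 175 FPKM in fed libraries, while intronic Rpl3 was higher in fasted libraries at every time.

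In liver the paralogs stood the other way round. Rpl3 had 12.8, 18.3 and 35.2 FPKM in fasted liver and 18.9, 23.8 and 31.8 FPKM in fed liver, and Rpl3l had 0, 0.034 and 0.909 FPKM in fasted liver and 0, 0.251 and 0.639 FPKM in fed liver. The ratio of Rpl3l to Rpl3 was at most 0.051 in fasted and 0.027 in fed liver. The median ratio was 0.0018 in fasted and 0.010 in fed liver. Summed skeletal muscle markers had a median of 0.823 FPKM in fasted and 68.3 FPKM in fed liver, with highest values of 349 and 179 FPKM, and their part in the Rpl3l of liver was not tested.

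The number of members past the threshold in liver was counted at each time. At ZT0, 54 of 74 members fell and 1 rose (39.6% of all genes fell), with a median of -0.64. Falls numbered 26 at ZT4 (32.6% of all genes), 12 at ZT8 (28.8%), 0 at ZT12 (28.1%), 38 at ZT16 (35.2%) and 42 at ZT20 (30%). The count of 0 at ZT12 came with 0 falls at an unadjusted p under 0.05 by limma. At ZT12 5 members rose (12.6% of all genes rose) and the median was 0.13. Rises numbered 0 at ZT4 (11.6% of all genes), 0 at ZT8 (9.8%), 0 at ZT16 (11.9%) and 1 at ZT20 (15.7%), with 0, 1 and 0 at an unadjusted p under 0.05 by limma at ZT4, ZT8 and ZT16. Rplp1 shows the pattern by library. At ZT0 it had 377, 388 and 430 FPKM in fasted libraries and 690, 730 and 831 FPKM in fed ones. At ZT12 it had 410, 425 and 798 FPKM in fasted libraries and 412, 569 and 591 FPKM in fed ones, and the 798 FPKM was replicate 5, the library of extreme slope. At ZT20 it had 432, 435 and 478 FPKM in fasted libraries and 663, 744 and 772 FPKM in fed ones. The log2 changes of Rplp1 were -0.91 at ZT0, -0.62 at ZT4, -0.46 at ZT8, 0.00 at ZT12, -0.53 at ZT16 and -0.69 at ZT20.

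The difference of the fasting change between times was tested per gene, and 27 of 74 members passed in liver (limma F test, adjusted p under 0.05), below the 40.7% of all genes. That count was 52 without fasted ZT12 replicate 4, 17 without fed ZT0 replicate 5 and 14 without fed ZT12 replicate 4. It was 12 without the 2 extreme libraries and 15 with the linear length trend removed. Counts at single times also rested on few libraries. Without fasted ZT12 replicate 5, falls numbered 40 at ZT4, 23 at ZT8 and 2 at ZT12. Without fasted ZT8 replicate 3 or fed ZT8 replicate 3 there were 3 at ZT8. Without replicate 4 of fasted ZT16 or replicate 1 of fed ZT16 there were 25 at ZT16, and without replicate 4 of fasted or fed ZT20 there were 27 at ZT20. With median-of-ratios scaling falls were 5 at ZT4, 4 at ZT8, 6 at ZT16 and 24 at ZT20, and 18 members rose at ZT12. Shares of all genes at single times with that scaling are not given here, so these counts have no background. In muscle the members that rose and fell were 2 and 2 at ZT0, 5 and 5 at ZT4, 11 and 0 at ZT8, 10 and 1 at ZT12, 3 and 4 at ZT16, and 1 and 1 at ZT20. Of all genes in muscle, 14.5, 21.7, 23.7, 28.1, 29.1 and 13.7% rose and 41.9, 38.7, 40.1, 34.9, 32.6 and 33.9% fell from ZT0 to ZT20. The count of 0 falls at ZT8 came with 1 at an unadjusted p under 0.05 by limma. Only 3 of 75 members differed between times in muscle, where 22.9% of all genes did, and 6 did at an unadjusted p under 0.05. The count was 1 without fasted ZT12 replicate 5 and 5 without fed ZT4 replicate 1.

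**Figure D5:**
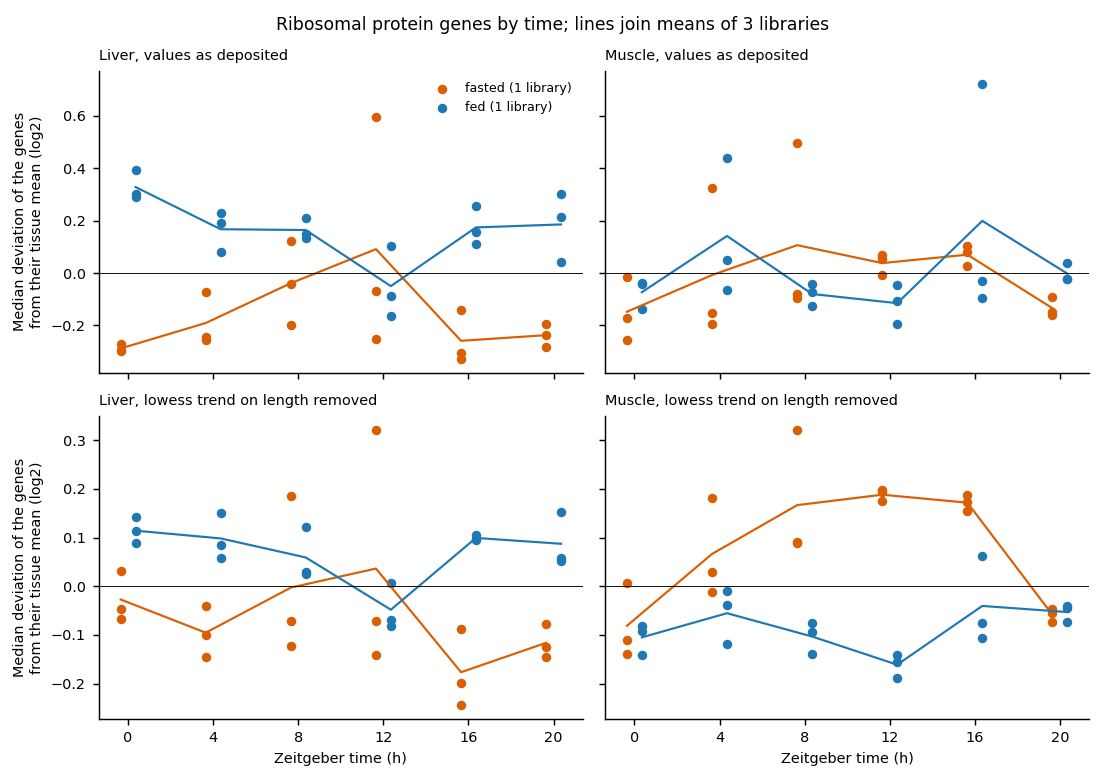
Median deviation of the members from their tissue mean (log2) by zeitgeber time (h), with 1 point per library and lines through the means of 3 libraries, liver left and muscle right, as deposited above and after removal of a lowess length trend below. In fasted liver replicate 5 at ZT12 lies at 0.59 as deposited and at 0.32 after removal of the trend.

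A 24-h cosine was fitted to each feeding state. In liver, 17 of 74 members passed in fasted mice and 13 in fed mice, below the 31% and 39.7% of all genes, while 38 differed between fasted and fed mice, above the 32.4% of all genes. Among members that passed, fitted peaks fell between ZT6 and ZT14 for 17 of 17 in fasted liver and between ZT20 and ZT2 for 12 of 13 in fed liver, all in values with the length trend left in. Rpl3 had an amplitude of 0.34 log2 units with a peak at ZT10.2 in fasted liver (limma adjusted p = 0.000361) and of 0.20 with a peak at ZT23.8 in fed liver (limma adjusted p = 0.0302), and the rhythms differed (limma adjusted p = 0.000335). Rplp0 had 0.16 at ZT10.0 in fasted liver and 0.20 at ZT23.7 in fed liver (difference, limma adjusted p = 0.000550). Rps25, which some viral RNAs need to start translation, had 0.20 at ZT10.9 in fasted liver and 0.18 at ZT23.5 in fed liver (difference, limma adjusted p = 0.00181). Rps27l (0.27, peak ZT11.8) and Rpl4 (0.19, peak ZT9.47) led the fasted rhythms after Rpl3, and Rplp1 (0.23, peak ZT23.3) followed Rplp0 among the fed rhythms. Without fed ZT12 replicate 4 the fed rhythm of Rplp1 had a limma adjusted p of 0.084.

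The rhythm counts in liver moved with the length trend and with single libraries. With the linear trend removed, 8 members passed in fasted and 6 in fed liver and 22 differed, and with the lowess trend removed these counts were 5, 3 and 6. The share of members that differed was then 29.7% against 30% of all genes with the linear trend removed, and 8.11% against 27.3% with the lowess trend removed, so it no longer exceeded that of all genes. Without the 2 extreme libraries it was 33.8% against 31%. Fasted rhythms numbered 7 to 9 without any of fasted ZT0 replicates 1 and 4, ZT8 replicates 1 and 2, ZT12 replicate 5 and ZT20 replicate 4. Fed rhythms numbered 4 without fed ZT0 replicate 5 or fed ZT12 replicate 4, 7 without fed ZT12 replicate 3 and 21 without fasted ZT12 replicate 5.

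In muscle, 11 of 75 members had a rhythm in fasted mice and 0 in fed mice, where 47.4% and 4.46% of all genes did, and 5 differed (32.6% of all genes). Of fed members 4 had an unadjusted p under 0.05 by the limma F test, led by Rpl19 (unadjusted p = 0.00561, adjusted p = 0.0922), Rpl34 and Rps6. Peaks of the members that passed in fasted muscle fell between ZT6 and ZT14 for 11 of 11. Rpl3 had an amplitude of 0.30 with a peak at ZT7.99 in fasted muscle and of 0.10 in fed muscle (difference, limma adjusted p = 0.00568). Rpl12 had 0.36 at ZT9.61 in fasted muscle and 0.079 in fed muscle, and Rpl34 had 0.31 at ZT7.86 in fasted muscle and 0.22 at ZT21.0 in fed muscle (difference, limma adjusted p = 0.00239). Rpl19 differed as well (limma adjusted p = 0.00923). Removal of the linear length trend gave 29 fasted rhythms (38.7% against 54% of all genes), 1 fed rhythm and 19 differences (25.3% against 39.1%). With the lowess trend removed there were 39 fasted rhythms (52% against 55.6%), 1 fed rhythm and 31 differences (41.3% against 40.9%). The fasted and difference shares were then close to those of all genes. Without the 2 extreme libraries there were 26 fasted rhythms (35.6% against 55.1%), 1 fed rhythm and 16 differences (21.9% against 38.5%). Fasted rhythms numbered 21 without fed ZT16 replicate 5, and 5 to 7 without any of fasted ZT0 replicate 1, ZT8 replicate 4, ZT12 replicate 5, ZT16 replicate 5 and ZT20 replicate 1. Differences numbered 12 without fed ZT16 replicate 5 and 8 without fed ZT4 replicate 1, which also left 1 fed rhythm.

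Levels were also compared between the tissues. In fed mice 56 of 77 members were higher in liver than in muscle and 4 lower (41.6% of all genes higher, 49.8% lower and 91.4% either), with a median difference of 0.35 against -0.13. In fasted mice 29 were higher and 19 lower (40.4% and 51.5% of all genes, 91.9% either), with a median of 0.07 against -0.19. The split depended on scaling and length. In fed mice it was 67 higher and 3 lower with median-of-ratios scaling (45.5% and 45.9% of all genes). Quantile normalisation gave 36 and 28 (42.4% and 49.9%) and removal of the linear trend 31 and 15 (42% and 50.1%). In fasted mice the same 3 gave 46 and 7 (45.2% and 46.3% of all genes), 27 and 32 (41.2% and 50.8%), and 16 and 44 (40.6% and 52.1%). The last 44 were 57.1% of the members, near the share of all genes. Without the 2 libraries of most extreme slope per tissue, 63 of 76 were higher and 4 lower in fed mice (41.8% and 49.9%). The pseudogene Rps4l was higher in liver by 2.75 in fasted and 2.47 in fed mice, Rpl3 by 1.49 and 2.29 and Rps27l by 1.07 and 1.31. Rpl23a, which entered this comparison through its liver values alone, had 1.15, 2.04 and 2.85 FPKM in fasted liver and 0.281, 0.356 and 0.581 FPKM in fasted muscle. Rpl3l entered through its muscle values alone and was lower in liver (-8.59 in fed mice). The counts above include Rpl23a as higher and Rpl3l as lower in liver. Both calls were bound up with the filter and are no separate result. Rplp0 was lower in liver by 0.58 in fasted and 0.29 in fed mice. Rps12 (-0.74), Rpl34 (-0.64) and Rpl12 (-0.59) were also lower in liver of fasted mice, and Rpl15 (-0.40) and Rps15a (-0.18) in fed mice.

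Other genes of the pathway were counted beside the members, with 25% of all genes rising and 48% falling in liver and 30.3% rising and 51.8% falling in muscle. With median-of-ratios scaling, 37.6% of all genes rose and 35.4% fell in liver, and 39.4% rose and 41.3% fell in muscle. Every list below is to be read against these shares. Of 18 other TOP mRNAs, which encode translation factors and RNA-binding proteins, 6 rose and 6 fell in fasted liver (10 and 1 with median-of-ratios scaling). The RNA-binding protein Hnrnpa1 averaged 8.97 ± 4.44 FPKM in fasted and 5.62 ± 1.13 FPKM in fed liver (log2 change 0.57), Npm1, nucleophosmin, changed by 0.42, and Tpt1 (-0.35) and the elongation factor subunit Eef1g (-0.32) fell. In fasted muscle 11 of the 18 rose and 1 fell (13 and 0 with median-of-ratios scaling). Hnrnpa1 averaged 53.8 ± 13.7 FPKM in fasted and 17.9 ± 3.19 FPKM in fed muscle (change 1.54), and Naca, of the nascent polypeptide-associated complex, 124 ± 22.5 FPKM in fasted and 52.9 ± 7.92 FPKM in fed muscle (change 1.21), while Eef1g fell by 0.25 (all SD, n = 18 per group). Of 7 ribosomal proteins outside the symbol rule, 5 fell in liver, led by Rpl36al (-0.80) and Rpl22l1 (-0.73), and in muscle 1 did, Rpl7l1 (-0.48). With median-of-ratios scaling 3 fell and 1 rose in liver, and 1 fell and 2 rose in muscle.

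Of 30 ribosome biogenesis genes, 10 rose and 5 fell in liver (16 and 1 with median-of-ratios scaling), led by Nop58 of box C/D snoRNPs (0.78), Nle1 (0.65), Nop16 (-0.40) and Nhp2 of box H/ACA snoRNPs (-0.30). In muscle 19 rose and 4 fell (24 and 2 with that scaling). Gnl3, nucleostemin, averaged 35.6 ± 13.2 FPKM in fasted and 10.2 ± 0.712 FPKM in fed muscle (SD, n = 18 each; change 1.65), Tsr1 changed by 1.22, and Wdr12 (-0.40) and Dkc1 (-0.39) fell. Of 21 genes of the mTORC1 pathway, 9 rose and 6 fell in liver, where 25% of all genes rose, 48% fell and 73% passed. In muscle 14 rose and 5 fell, where 30.3% of all genes rose, 51.8% fell and 82.1% passed. With median-of-ratios scaling 14 rose and 3 fell in liver and 15 rose and 4 fell in muscle. Ddit4, an inhibitor of mTORC1, averaged 99.6 ± 67.8 FPKM in fasted and 5.54 ± 2.35 FPKM in fed liver (change 3.68), and 380 ± 68.9 FPKM in fasted and 6.50 ± 4.97 FPKM in fed muscle (change 6.02). Of the sestrins, which restrain mTORC1 when amino acids are low, Sesn2 rose in liver (1.63), Sesn1 rose in muscle (4.19) and Sesn3 fell in liver (-0.65). Mlst8, a subunit of the complex, fell in liver (-0.69), and the inhibitor Deptor (-0.89) and the RNA-binding protein Larp4b (-0.70) fell in muscle.

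Mitochondrial ribosomal proteins, encoded by separate nuclear genes and tested in 76 of 77 cases, fell in both tissues. In liver 60 fell and 5 rose, with a median of -0.31 close to that of the cytosolic members, and in muscle 62 fell and 5 rose, with medians of -0.37 for the mitochondrial and -0.02 for the cytosolic members. Mrps27 (-0.95) and Mrpl14 (-0.90) fell most in liver and Mrpl17 (0.47) and Mrpl47 (0.29) rose most. In muscle Mrpl19 (-1.12) and Mrps16 (-0.95) fell most and Mrpl41 (1.60) and Mrpl9 (0.44) rose most. With median-of-ratios scaling 37 fell and 9 rose in liver, and 52 fell and 10 rose in muscle. The lists have median transcript lengths of 613 nt for ribosomal proteins outside the rule, 1255 nt for mitochondrial ribosomal proteins, 1829 nt for other TOP mRNAs, 2650 nt for biogenesis and 5531 nt for the mTORC1 pathway, so the length trend touches them unequally.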

How the data were processed

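TRIzol was used for RNA extraction and the unstranded TruSeq RNA v2 kit for libraries, per the labels' protocols. Expression was deposited by the authors as FPKM per gene over the whole gene, over exons and over introns, a unit inferred from the values since no header names it. CASAVA 1.8.2 and the build mm10 are named in the submitters' processing notes, while alignment, counting and the treatment of multiply mapped reads are not described in the sources available.

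The labels gave the groups, and each column matched 1 library by name. A gene entered a fit when 3 or more of the libraries in it reached 1 FPKM. Tests were run on log2(FPKM + 0.5), whose pseudocount understates changes of low genes, in R 4.3.3 with the moderated tests of limma 3.58.1 and a mean-variance trend, Benjamini-Hochberg adjustment over all genes tested and a threshold of 0.05. Time was a 6-level factor for the fasting effect. Tissue differences came from a model of 24 group means, and rhythms from 24-h cosine and sine terms per feeding state. Alternatives were other pseudocounts, filters, scalings, tables, length-trend removal, a replicate block and leaving out libraries. Tests were checked on simulated data. Figures came from matplotlib 3.10.9, and other tables from pandas 2.3.3 and NumPy 2.4.6 under Python 3.11.15. Lengths, coordinates and shared 50-base words came from GENCODE M21 on GRCm38, the assembly of mm10. The lengths of Rps15a and Rps20 are doubtful.

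Named with values were a fixed set by role, the 5 largest rises and falls past the threshold per comparison, the 3 smallest p per rhythm term, and the 2 largest changes in each direction of each comparison list. Members and lists were chosen with earlier results of these data known. Intronic levels of Rpl32 and the markers beside Rpl3l were added after their values were seen. Values of 1 member are not reported here by name, and it stays in all counts.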

Additional observations from a re-analysis of the deposited data

Results flagged for a closer look

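The fasting change (fasted minus fed, log2) differed between liver and muscle for 20 named members in the limma interaction test, adjusted over all genes. Values are liver minus muscle. Rpl12 differed by -0.99, Rps12 by -0.96, Rpl3 by -0.80, Rps27 by -0.71 and Rpl39 by -0.57. Of the stalk and small-subunit members, Rplp0 differed by -0.29, Rplp1 by -0.40, Rpsa by -0.32, Rps3 by -0.28, Rps4x by -0.41, Rps14 by -0.29, Rps19 by -0.51 and Rps27l by -0.24. Of the large subunit, Rpl4 differed by -0.30, Rpl10 by -0.48, Rpl10a by -0.54, Rpl13a by -0.29, Rpl22 by -0.34 and Rpl41 by -0.41, and Rpl15 alone in the other direction by 0.19. In 19 of the 20 the liver change lay below that of muscle. The 20 are the named members that passed. Rpl12, Rps12, Rpl3, Rps27, Rpl39 and Rpl15 met the naming rule through their rank in this same test, so the count is no separate result. Of all genes tested, 37% had a lower change in liver, 34.7% a higher one and 71.6% either. With quantile normalisation Rps27l and Rps3 turned to 0.020 and 0.039.

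The 24-h rhythm differed between fasted and fed liver for Rpl3 (limma adjusted p = 0.000335), Rplp0 (0.000550) and Rps25 (0.00181), and between fasted and fed muscle for Rpl34 (0.00239), Rpl3 (0.00568) and Rpl19 (0.00923).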

How the results depend on the processing

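Counts are of members past the threshold, and settings whose values stayed within 1.5 times are not listed. Causes were not tested. Median-of-ratios scaling gave 2 rises and 31 falls in liver, 25 and 4 in muscle, 1 and 26 exonic in liver, 18 intronic falls in liver, 29 and 2 exonic in muscle, 5 members with a higher exonic than intronic change in muscle, 46 higher and 7 lower in liver of fasted mice, falls of 5, 4, 6 and 24 at ZT4, ZT8, ZT16 and ZT20 in liver, and 6 fasted rhythms in muscle. Quantile normalisation gave 2 and 34 in liver, 19 rises in muscle, 2 and 31 in the tissue difference, 32 lower in liver of fasted mice, 36 and 28 in fed mice, 10 fasted rhythms in liver, and 1 fed, 17 fasted and 10 different rhythms in muscle. The linear length trend removed gave 3 rises in liver, 27 and 7 in muscle, 16 and 44 between tissues in fasted and 31 and 15 in fed mice, 15 time differences in liver and 9 in muscle, 1 fall at ZT12, rhythms of 6 fed, 8 fasted and 22 different in liver and 1, 29 and 19 in muscle. The lowess trend removed gave 5 and 36 in liver, 45 and 4 in muscle, 7 lower in liver of fed mice, and rhythms of 3, 5 and 6 in liver and 1, 39 and 31 in muscle. Without the 2 libraries of most extreme slope per tissue, a choice made after seeing the data, there were 8 falls in muscle, 12 time differences in liver and 5 in muscle, falls of 40, 23 and 2 at ZT4, ZT8 and ZT12, 9 fasted and 25 different rhythms in liver and 1, 26 and 16 in muscle. The exonic table gave 0 rises and 6 fed rhythms in liver and 3 rhythm differences in muscle. ZT16 and ZT20 alone gave 4 rises in muscle, no filter 10 fasted rhythms in liver and 7 in muscle, and a pseudocount of 1 gave 2 members that passed with a higher change in liver in the tissue difference.

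Leaving out 1 library at a time gave 5 to 11 exonic rises in muscle, 14 to 52 time differences in liver and 1 to 5 in muscle, falls in liver of 18 to 40 at ZT4, 3 to 23 at ZT8, 0 to 2 at ZT12, 25 to 51 at ZT16 and 27 to 48 at ZT20, rhythms of 4 to 21 fed and 7 to 25 fasted in liver, and of 0 to 1 fed, 5 to 21 fasted and 5 to 12 different in muscle.

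Replicate numbers were compared only between fasted and fed libraries of the same tissue and time. Same-numbered libraries correlated at a median of 0.014 in liver (4 of 11 pairs over 0.1) and 0.060 in muscle (4 of 12). Libraries of different number correlated at a median of -0.010 in liver (5 of 43 pairs over 0.1) and -0.011 in muscle (11 of 42). These values do not decide whether numbers pair libraries. Whether a number links liver and muscle of the same mouse was not examined. A replicate block gave 1 rise and 54 falls in liver, 7 and 13 in muscle and 46 lower in the tissue difference, the calls of Rps4l in liver (adjusted p = 0.065) and Rpl22 in muscle (0.070) were lost, and with the linear length trend removed 3 and 41 in liver and 24 and 7 in muscle.

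Only named genes were followed singly across settings. Those that reversed were, with the lowess trend removed, Rps18 in liver (0.14) and Rpl13a (0.11), Rpl41 (0.049), Rplp0 (0.11), Rplp1 (0.15), Rps27a (0.019), Rps4x (0.12) and Rps6 (0.20) in muscle. Rplp0 was 0.16 in muscle with median-of-ratios scaling and Rps6 0.26 with quantile normalisation. In the tissue difference Rps27l was 0.020 and Rps3 0.039 with quantile normalisation, and Rpl3l was -0.56 with a pseudocount of 0.1. Members of low level and shared sequence rest on few reads, which limits their precision.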
